A study of Drosophila melanogaster with 30 samples.

Results

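The genes described here encode subunits of respiratory complex I (NADH:ubiquinone oxidoreductase) in Drosophila Kc cells. They were all genes whose symbol in the probe annotation begins with ND-, each read by its brightest probe set that belongs to 1 gene. By that rule there were 31 genes among 10844 with such a probe set. RNA levels were measured on 30 Affymetrix fly arrays, 3 for each of 10 groups, from total RNA taken after 4 days of RNA interference (RNAi). The control cells received SK+, a nonspecific RNA made from a plasmid. In the other 9 groups the RNAi was directed at Mip40, Mip120, Mip130, Lin-52, Myb, E2F2, RBFs (RBF1 and RBF2 together), L(3)MBT or E2F1. All groups were 1 line of Kc cells, a tetraploid female line grown in suspension, so they stand for this line and not for fly tissue. The labels do not tell whether the arrays of 1 group stem from different cultures. The p-values below thus rest on a spread between samples that may be technical.

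Complex I is the entry point of electrons from NADH into the respiratory chain of mitochondria. Its matrix arm oxidises NADH and passes the electrons along iron-sulfur clusters to ubiquinone, and its membrane arm pumps protons. A few core subunits catalyse the reaction and are conserved from bacteria, while many accessory subunits around them are needed for assembly and stability. The core subunits of the membrane arm are encoded in mitochondrial DNA, and the ND- genes are nuclear. The proteins targeted by RNAi belong to or work with dREAM (Myb-MuvB), a chromatin complex that holds E2F2 and RBF proteins and represses many genes, and E2F1 is the fly's activating E2F. The question of each comparison was which transcripts change when 1 of these regulators is depleted.

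Of the 31 genes, 27 were bright enough to be tested, together with all others among 7794 probe sets. They were 2 core subunits that oxidise NADH (ND-75 and ND-51), 1 core subunit that reduces quinone (ND-20), the acyl carrier protein ND-ACP, 6 accessory subunits of the matrix arm, 15 of the membrane arm, and 2 paralogs (ND-20L and ND-B14.5AL). The other 4, ND-51L1, ND-51L2, ND-24L and ND-B8, were not tested, since they did not exceed their array's median on 3 arrays. Their control means were 6.28 ± 0.07, 6.33 ± 0.05, 5.99 ± 0.06 and 5.28 ± 0.11 (log2 signal, SD, n = 3). A further 9 ND- genes of the RefSeq gene table were not among them and were not analysed here. They include the core genes ND-24, ND-30, ND-23 and ND-49. Values are deposited signals read as log2, and changes are log2 differences between group means from limma's fit of all 30 arrays, with Benjamini-Hochberg adjusted p-values over all tested probe sets and a threshold of 0.05. The standard errors (SE) of the changes of the 27 genes ran from 0.0512 to 0.0965. A lower signal from fewer expressing cells cannot be told apart from less RNA per cell in such bulk samples.

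The whole series bears on these genes at 3 points. The target transcripts fell to between 19.3% (E2f2) and 78.1% (l(3)mbt) of control in 8 of 8 tested cases, Rbf was too weak to test at 96.9%, and Myb has no named probe set here. Of the hemocyte (blood cell) markers on the array, 7 of 11 lay above the range of control probe sets without a fly target (3.16 to 6.22), with Hml at 11.28 in control. So did 3 of 3 fat body, 2 of 3 germ line, 2 of 4 testis, 1 of 3 neuronal and 0 of 3 muscle markers. Such counts thus do not single out blood cells. Some of the hemocyte markers differed widely between groups. Group means of Pxn ran from 7.34 in E2F1 to 10.71 in E2F2, of Col4a1 from 7.21 in RBFs to 9.22 in Myb, of vkg from 6.99 in Mip40 to 9.08 in E2F1, and of eater from 4.32 in Mip40 to 7.45 in E2F1. Those of Hml ran from 10.61 in RBFs to 11.51 in E2F2, and srp, Pvr and ush spanned less than Pxn, Col4a1 and vkg. Among the 3 germ line markers, group means of vas ran from 4.21 to 7.75, of aub from 7.92 to 8.66 and of bam from 5.66 to 6.74. The part of the marker lists in the changes below was not tested. The 3 L(3)MBT arrays stood apart from the rest. Their interquartile range was 2.37 to 2.48 against 2.16 to 2.28 on the other 27 arrays, and their actin 3′ minus 5′ signal was 0.80 to 1.01 against 0.39 to 0.87. L(3)MBT is therefore described last, and the results over groups are given with and without it.

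Across the 10 groups, 26 of the 27 genes differed (moderated F test in limma), against 93.9% of all tested probe sets. Without the L(3)MBT arrays, 19 of 27 differed, against 75.4%. Both shares lay near those of all probe sets. The exception over 10 groups was ND-B12, a small membrane arm subunit, with an adjusted p of 0.29 in limma. The range of a gene's 10 group means had a median of 0.67 over the complex I genes and 0.52 over all genes. Without L(3)MBT these ranges were 0.30 and 0.34.

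**Figure D1:**
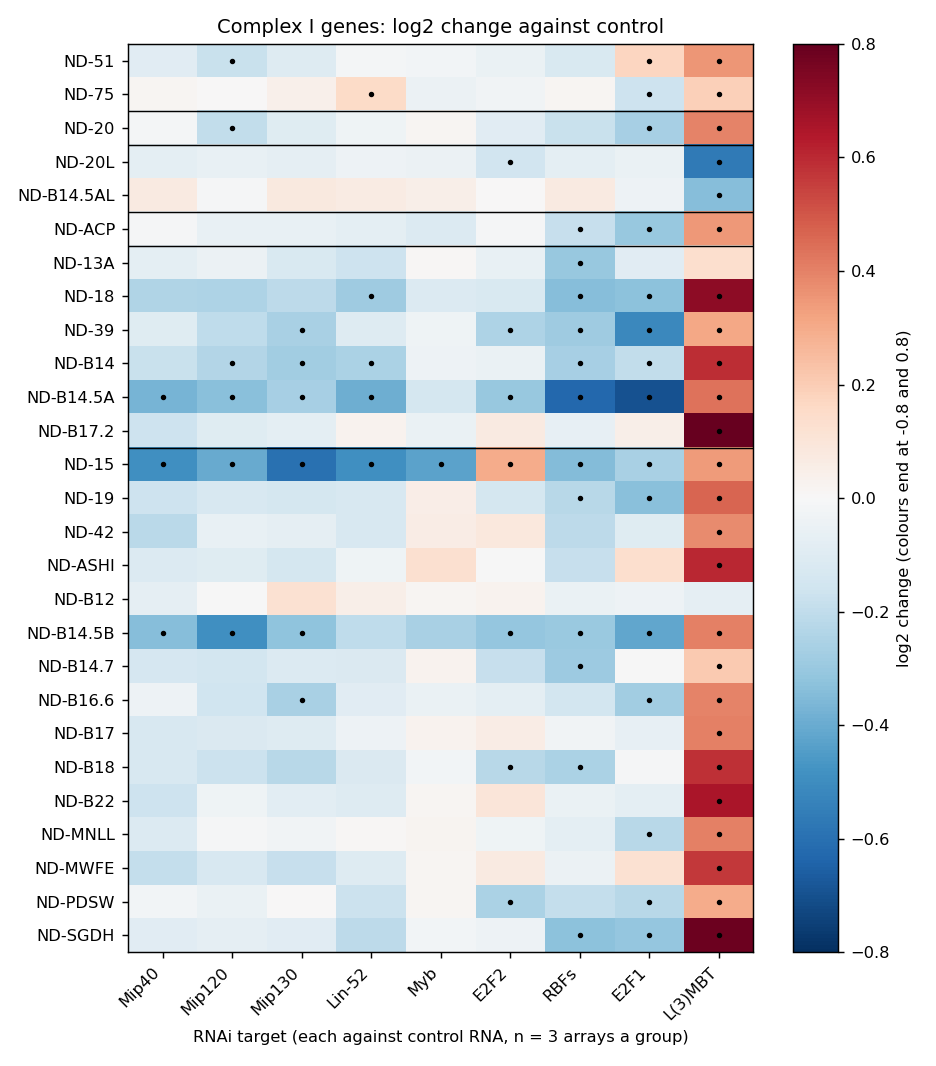
Log2 change of each of the 27 tested complex I genes (rows, ruled into core NADH-oxidising, core quinone-reducing, paralog, acyl carrier, matrix arm and membrane arm genes) in each knockdown against control (columns, 3 arrays a group). Red is higher and blue lower, and a dot marks an adjusted p under 0.05: 23 genes were higher in L(3)MBT, 14 were lower in E2F1 and 12 in RBFs, and ND-15 was the only one with dots in all 9 columns.

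Outside L(3)MBT most called changes were falls of modest size. Over the 8 other knockdowns there were 52 called falls and 3 called rises among the 27 genes, while 11.5% of all pairs of probe set and knockdown were called lower and 10.3% higher. In all, 19 genes fell in at least 1 knockdown, and 8 were called in none: ND-42, ND-ASHI, ND-B12, ND-B14.5AL, ND-B17, ND-B17.2, ND-B22 and ND-MWFE. The shares of all probe sets called lower in at least 1, or called in none, of the 8 were not computed. The counts of 19 and 8 thus have no background here. These comparisons share the same 3 control arrays, so a control array that reads high or low enters all of them. Of the 55 called changes, 20 were kept in every alternative, and leaving out control replicate 1 ended 30 of them, replicate 2 ended 17 and replicate 3 ended 4. The 20 were falls of ND-B14.5A in 6 knockdowns, of ND-15 in 3, of ND-B14.5B in Mip120 and E2F1, of ND-B16.6 in Mip130 and E2F1, of ND-13A in RBFs, and of ND-18, ND-19, ND-20, ND-39, ND-75 and ND-ACP in E2F1.

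ND-15, the fly relative of the mammalian accessory subunit NDUFS5, was called in all 9 knockdowns, lower in 7 and higher in 2. Its 3 control arrays read 9.10, 8.90 and 8.79. After Mip130 knockdown they read 8.23, 8.36 and 8.42, a fall by 0.60 (SE 0.0965, adjusted p 3.49e-05 in limma) to 66.2% of control. After Mip40 knockdown they read 8.44, 8.41 and 8.48, a fall by 0.49. All 6 of these arrays lay below the lowest control array.

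After Lin-52 knockdown ND-15 read 8.77, 8.33 and 8.22, a fall by 0.49 in which the first array lay just under the lowest control. After Mip120 knockdown it read 8.50, 8.41 and 8.66, a fall by 0.41. After Myb knockdown it read 8.52, 8.58 and 8.41, a fall by 0.43. The subunits of the MuvB core and Myb thus gave changes of ND-15 between -0.60 and -0.41, whose intervals overlap. RBFs knockdown gave 8.71, 8.49 and 8.55, a fall by 0.35, and E2F1 knockdown gave 8.56, 8.72 and 8.74, a fall by 0.26. The calls in Myb (adjusted p 0.0531), RBFs (0.0835) and E2F1 (0.168) were lost without control replicate 1. Those in RBFs and E2F1 were also lost without 1 of their own arrays, RBFs replicate 2 (0.0548) or E2F1 replicate 1 (0.115). The call in E2F1 was lost as well after centring each array on its median (adjusted p 0.0833 in limma) and after cyclic loess normalization (0.0585). That in Lin-52 was lost when only its 6 arrays were fitted (0.0537).

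After E2F2 knockdown ND-15 went the other way. Its arrays read 9.29, 9.25 and 9.14, each above the highest control array, a rise by 0.29 (SE 0.0965, adjusted p 0.025 in limma) to 123% of control. Set directly against E2F2, its level was lower in RBFs by 0.64 (adjusted p 9.96e-06), lower in Myb by 0.72 (6.53e-07), and lower in Mip120 by 0.70 (2.06e-06), and it was higher in E2F2 than in E2F1 by 0.55 (1.57e-05), all in limma. The 3 arrays of each of these groups lay wholly to 1 side of the E2F2 arrays. The calls in Mip40, Mip120 and Mip130 were kept under every alternative run. The rise in E2F2 missed the threshold without control replicate 2 or 3 and without E2F2 replicate 1 or 2 (adjusted p 0.0667 to 0.138).

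**Figure D2:**
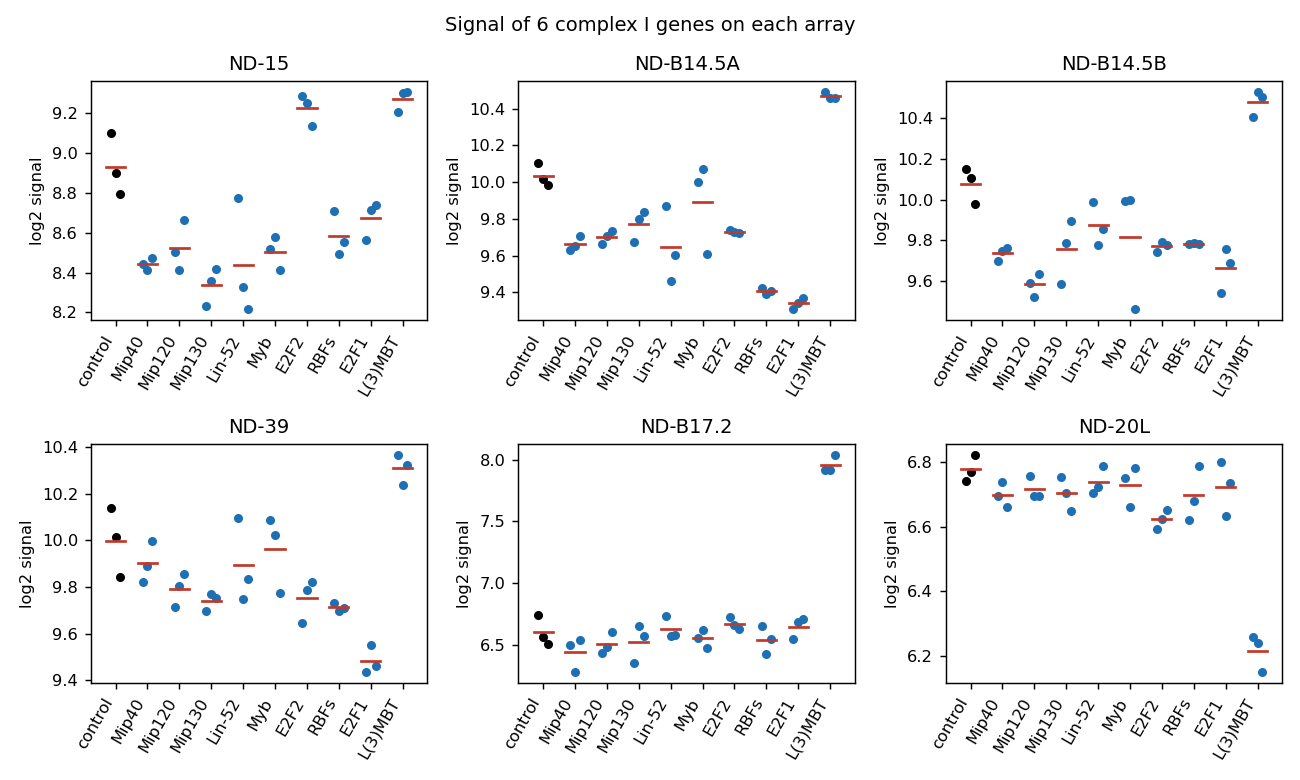
Log2 signal of 6 complex I genes on each of the 30 arrays (dots, control in black) with the mean of each group of 3 (red line). ND-15 lies below control in 7 knockdowns and above it in E2F2 and L(3)MBT, ND-B14.5A is lowest in RBFs and E2F1, and ND-B17.2 rises only on the L(3)MBT arrays among those shown.

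In the RefSeq gene table the span of ND-15 holds 14 other genes, 7 of which were tested. They were looked up after the values of ND-15 were seen. In Lin-52 knockdown 6 of the 7 were called lower, in Mip130 and Myb 5, in Mip120 4, in Mip40 3 and in RBFs 2, where 10.7%, 5.98%, 3.43%, 10.5%, 8.92% and 11.9% of all probe sets were lower. In E2F2 knockdown 3 were called higher and 1 lower (16.4% and 9.12% of all), in E2F1 knockdown 3 higher and 3 lower (22.9% and 31.3%), and in L(3)MBT knockdown 1 higher and 2 lower (38.9% and 34.6%). Some of these genes changed with the sign of ND-15 in the knockdowns given next, though not in all 9. Gs1, a glutamine synthetase, changed by -0.68 in Mip40 (SE 0.0817, adjusted p 2.47e-07 in limma) and by 0.64 in E2F2 (adjusted p 1.11e-06). CG3164 changed by -0.66 in Mip130 and by 0.77 in E2F2, and CG4822 by -0.86 in Lin-52 and by 0.41 in E2F2.

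Other genes of the span did not share the E2F2 rise. CG11454 changed by -0.51 in Mip120 and -0.54 in Mip130, and by -0.04 in E2F2 (adjusted p 0.693 in limma). Pus10, named after a pseudouridine synthase, was lower in all knockdowns but E2F2, by 0.59 in Mip120 for example, with a change of -0.17 in E2F2 (adjusted p 0.0654). In E2F1 knockdown CG4822 rose by 1.20, CG3164 by 0.83 and Gs1 by 0.26, while ND-15 fell. CG4822 was at 0.11 in Mip40 and 0.14 in RBFs, where ND-15 fell. In L(3)MBT, where ND-15 rose, CG4822 and CG3164 were at -0.07 and -0.05. These last changes of CG4822 and CG3164 were not called. Whether signal of neighbouring transcripts is part of the ND-15 values was not tested.

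**Figure D3:**
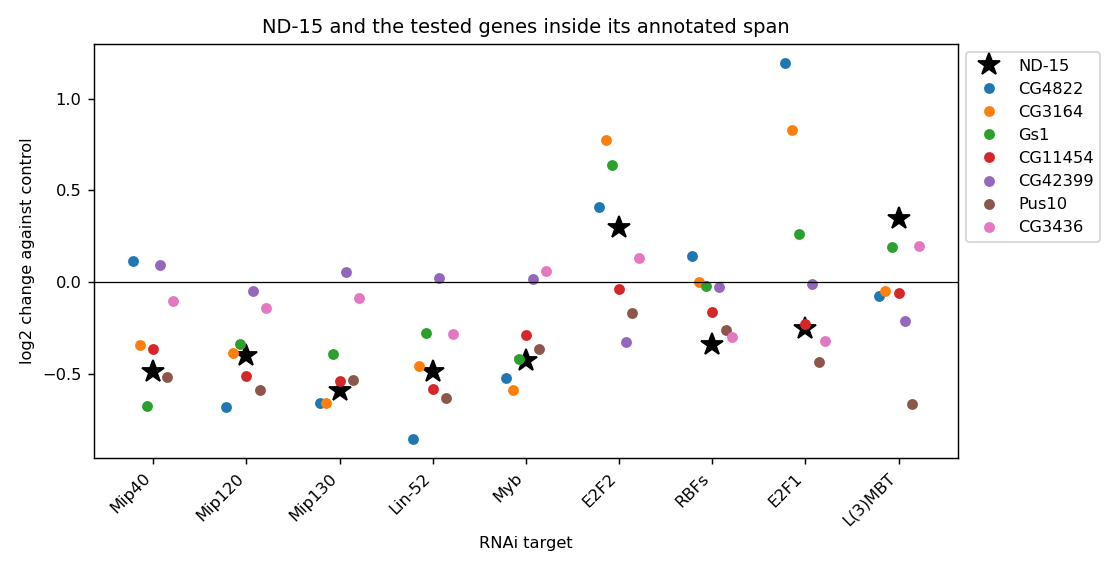
Log2 change against control of ND-15 (stars) and of the 7 tested genes inside its annotated span (dots) in each knockdown, from means of 3 arrays. ND-15 and Gs1 are both below 0 in Mip40, Mip120, Mip130, Lin-52 and Myb and above 0 in E2F2. In E2F1 ND-15 is at -0.26, Gs1 at 0.26 and CG4822 at 1.20.

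Among the accessory subunits of the matrix arm, ND-B14.5A (mammalian NDUFA7) had the largest falls. Its control arrays read 10.10, 10.02 and 9.98. After E2F1 knockdown they read 9.31, 9.34 and 9.37, a fall by 0.69 (SE 0.0824, adjusted p 1.93e-08 in limma) to 61.8% of control. After RBFs knockdown they read 9.43, 9.39 and 9.41, a fall by 0.63 (adjusted p 9.89e-07) to 64.7%. These 2 groups were far below control and tight within themselves.

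ND-B14.5A was also called lower in Lin-52 (by 0.39), Mip40 (by 0.37), Mip120 (by 0.33), E2F2 (by 0.30) and Mip130 (by 0.26). Only Myb gave no call among the 8, with arrays at 10.00, 10.07 and 9.61 and a change of -0.14 (95% interval -0.31 to 0.03). Set directly against E2F2 it was lower in RBFs by 0.32 (adjusted p 0.00465 in limma), and its level after E2F1 knockdown was below that after E2F2 knockdown by 0.39 (adjusted p 0.000192 in limma). Its calls in Mip40, Mip120, Lin-52, E2F2, RBFs and E2F1 held under every alternative run. The call in Mip130 was lost without control replicate 1 or 2, without Mip130 replicate 1 or 2 and after cyclic loess normalization (adjusted p 0.0517 to 0.182).

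Its paralog ND-B14.5AL was called in none of these 8 knockdowns, with changes from -0.04 to 0.08. Its control arrays read 8.28, 8.30 and 8.40. In E2F1 knockdown, where ND-B14.5A had its largest fall, ND-B14.5AL read 8.18, 8.35 and 8.33 and its groups overlapped.

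ND-39 (mammalian NDUFA9), a matrix arm subunit next to the quinone site, was called lower in 4 knockdowns. Its control arrays read 10.14, 10.02 and 9.84. E2F1 knockdown gave 9.44, 9.55 and 9.46, a fall by 0.52 (SE 0.0804, adjusted p 2.43e-06 in limma). The falls in RBFs (by 0.29), Mip130 (by 0.26) and E2F2 (by 0.25) were smaller, and all 3 were lost without control replicate 1 (adjusted p 0.0881 to 0.258). ND-B14 (mammalian NDUFA6) was called lower in 5 knockdowns, by 0.19 in E2F1 to 0.28 in Mip130, and 2 of these 5 groups, Lin-52 and E2F1, overlapped with control.

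ND-18 (mammalian NDUFS4) was called lower in RBFs (by 0.34), E2F1 (by 0.33) and Lin-52 (by 0.28), with the Lin-52 arrays at 7.96, 7.67 and 7.85 overlapping the control arrays at 8.27, 8.15 and 7.92. ND-13A (mammalian NDUFS6) was called lower in RBFs alone of the 8, by 0.30 (adjusted p 0.000601 in limma), a call kept in every alternative. ND-B17.2 (mammalian NDUFA12) was called in none of the 8, with changes from -0.17 to 0.07 at a low control signal of 6.50 to 6.74. The matrix arm genes thus ranged from 7 called falls for ND-B14.5A to none for ND-B17.2 over the same 8 knockdowns.

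In the membrane arm, ND-B14.5B (mammalian NDUFC2) followed ND-15 in number of calls. Its control arrays read 10.15, 10.11 and 9.98. Mip120 knockdown gave 9.59, 9.52 and 9.64, a fall by 0.49 (SE 0.0925, adjusted p 0.000224 in limma) to 71.1% of control. E2F1 knockdown gave 9.54, 9.76 and 9.69, a fall by 0.42. Further called falls were 0.34 in Mip40, 0.32 in Mip130, 0.31 in E2F2 and 0.29 in RBFs, each with its 3 arrays below all control arrays. These 4 calls were lost without control replicate 1 (adjusted p 0.0567 to 0.106), and those of Mip120 and E2F1 were kept throughout.

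The other called membrane arm genes had 1 or 2 calls each among the 8 knockdowns. ND-SGDH (mammalian NDUFB5) fell by 0.33 in RBFs and by 0.31 in E2F1, ND-19 (NDUFA8) by 0.22 and 0.33, and neither was called elsewhere among the 8. ND-B16.6 (NDUFA13, also known in mammals as the cell death regulator GRIM-19) fell by 0.28 in E2F1 and by 0.26 in Mip130. ND-PDSW (NDUFB10) fell by 0.25 in E2F2 and by 0.22 in E2F1. ND-B18 (NDUFB7) fell by 0.26 in RBFs and by 0.22 in E2F2. ND-B14.7 (NDUFA11) fell by 0.29 in RBFs. ND-MNLL (NDUFB1) fell by 0.22 in E2F1, and its dimmer second probe set by 0.44 there. That second probe set also had a called fall in E2F2 by 0.16 (adjusted p 0.0472 in limma), where the brighter one changed by -0.03. Of the calls of these genes by their brightest probe sets, only ND-19 in E2F1 and both of ND-B16.6 were kept without control replicate 1. The rest were lost there (adjusted p 0.0548 to 0.308 in limma). The falls of ND-19 in RBFs and ND-B18 in E2F2 were lost in 5 and 7 of 17 alternatives.

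The called changes of the core subunits outside L(3)MBT were 0.26 or smaller and ran in both directions. ND-75, which holds several iron-sulfur clusters and takes electrons on from the flavin site, was at 9.63, 9.59 and 9.59 in control. It fell by 0.17 in E2F1 (9.43, 9.44 and 9.43) and rose by 0.15 in Lin-52 (9.79, 9.71 and 9.78). ND-51, which binds NADH and the flavin, was at 9.14, 9.01 and 9.10 in control. It fell by 0.18 in Mip120 (8.83, 8.95 and 8.92) and rose by 0.17 in E2F1 (9.17, 9.34 and 9.26).

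The rise of ND-75 in Lin-52 was lost in 5 of 6 fits that left out 1 array (adjusted p 0.0532 to 0.0946 in limma). It was also lost when only its 6 arrays were fitted (0.186). The rise of ND-51 in E2F1 was lost under quantile normalization (0.141) and without control replicate 2 or E2F1 replicate 2. ND-20, which carries the last cluster before ubiquinone, fell by 0.26 in E2F1 and by 0.20 in Mip120. The Mip120 falls of ND-20 and ND-51 were lost in 6 and 4 of 17 alternatives (adjusted p in limma up to 0.205 and 0.131). The paralog of ND-20, ND-20L, fell by 0.16 in E2F2 (6.59, 6.63 and 6.65 against 6.74, 6.77 and 6.82). That call was lost in 9 of 16 alternatives. These were 5 of 6 fits that left out 1 array, median centring, cyclic loess, no filter and the 6 arrays alone. ND-ACP, the mitochondrial acyl carrier protein that also serves fatty acid synthesis, fell by 0.30 in E2F1 and by 0.19 in RBFs.

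By knockdown, the counts of complex I genes called lower were read against all tested probe sets. RBFs gave 12 of 27, with 11.9% of all probe sets called lower, and the median change was -0.19 against 0.00 over all genes tested. E2F1 gave 14 of 27 lower, with 31.3% of all probe sets lower, and 1 higher, ND-51, with 22.9% of all higher. Its median was -0.17 against -0.06. Bright probe sets were lower as a whole in both knockdowns. At control signals of 9 to 10 and 10 to 11, all probe sets had medians of -0.046 and -0.095 in RBFs. The complex I genes of these classes had -0.22 and -0.16. In E2F1 the medians of all probe sets were -0.075 and -0.13, and those of complex I were -0.10 and -0.27. Without control replicate 1, the number of called genes went from 12 to 3 in RBFs and from 15 to 10 in E2F1.

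Mip120 and Mip130 gave 6 genes lower each, with 10.5% and 5.98% of all probe sets lower, and medians of -0.11 and -0.10. E2F2 gave 6 lower with a background of 9.12% and 1 higher, ND-15, with 16.4% of all probe sets higher. Its median was -0.05. Lin-52 gave 4 lower with a background of 10.7% and 1 higher, ND-75, with 8.74% of all higher. Mip40 gave 3 lower, ND-15, ND-B14.5A and ND-B14.5B, with a background of 8.92%.

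Myb gave 1, ND-15, with 3.43% of all probe sets lower, and its median was -0.02. The complex I medians in Mip40 and Lin-52 were -0.11 and -0.10. The medians over all genes tested lay between -0.01 and 0.01 in the 6 comparisons of Mip120, Mip130, E2F2, Lin-52, Mip40 and Myb. At control signals of 9 to 10, medians of all probe sets ran from -0.05 (Mip130) to 0.04 (E2F2) in these 6. Those of complex I ran from -0.14 (Mip130) to -0.02 (Myb). At 10 to 11 they ran from -0.08 (Mip130) to 0.05 (E2F2) over all, and from -0.14 (Mip120) to -0.02 (Myb) for complex I. Leaving out control replicate 1 or 2 brought the count in Mip130 from 6 to 2 and in Lin-52 from 5 to 2, replicate 1 brought Mip120 from 6 to 3 and Myb from 1 to 0, and leaving out E2F2 replicate 1 brought E2F2 from 7 to 2.

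The knockdowns were also set against one another. E2F2 exceeded E2F1 in 11 of 27 genes, with 31.2% of all probe sets higher, and was below it in 2, ND-51 and ND-B18, with 21.8% lower. The split depended on the scaling, with 5 genes higher and 5 lower after cyclic loess normalization and 7 and 2 after centring each array on its median. Besides ND-15 and ND-B14.5A, the genes higher in E2F2 included ND-ACP (by 0.29, SE 0.057, adjusted p 6.53e-05 in limma), ND-SGDH and ND-39 (both by 0.27). RBFs were below E2F2 in 7 genes, with 15.4% of all probe sets lower. These included ND-42 (NDUFA10), which was at 9.64 ± 0.12 in control and called in neither knockdown, and was lower in RBFs than in E2F2 by 0.29 (adjusted p 0.00823).

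Myb and E2F2 differed in 3 genes, with 32.4% of all probe sets differing: ND-15 was lower in Myb, and ND-PDSW (by 0.27) and ND-39 (by 0.21) were higher. Mip120 and E2F2 differed in 2 genes, ND-15 and ND-PDSW, with 31.7% of all probe sets differing. Myb exceeded Mip130 in 3 genes, ND-ASHI, ND-B14 and ND-B16.6 (by 0.27, 0.24 and 0.21), with 6.74% of all probe sets higher. Myb replicate 3 decided this count, which was 15 without it.

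For 2 pairs of MuvB subunits, limma called 0 of the 27 genes. Mip120 and Mip130 had 2.35% of all probe sets called in either direction, and 0 of the 27 genes had an unadjusted p under 0.05. Lin-52 and Mip40 had 13.1% of all probe sets called, and 2 of the 27 had an unadjusted p under 0.05. With array weights 2 genes were called in each of the 2 pairs. A p that misses the threshold does not show that the levels were equal.

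The L(3)MBT knockdown stood apart from all others in direction. L(3)MBT is a chromatin protein with malignant brain tumor repeats that associates with dREAM. On its arrays 23 of the 27 complex I genes were higher than in control and 2 were lower, with 38.9% and 34.6% of all probe sets higher and lower. The median change was 0.40 against 0.02 over all genes tested. The 2 not called were ND-13A (0.13, 95% interval 0.00 to 0.26) and ND-B12 (-0.07, interval -0.23 to 0.08).

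ND-B17.2 rose most. Its control arrays read 6.74, 6.56 and 6.50 and its L(3)MBT arrays 7.92, 7.92 and 8.04, a rise by 1.36 (SE 0.0812, adjusted p 1.25e-14 in limma) to 256% of control. It was the one complex I gene that more than doubled. Its control arrays lay little above the range of control probe sets without a fly target (3.16 to 6.22), so the 256% is not exact. Under all 16 alternatives run for this gene the change lay between 1.29 and 1.47 and the call was kept.

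ND-SGDH rose by 0.78, with arrays at 9.75, 9.70 and 9.87 against 9.17, 8.91 and 8.89 in control. ND-18 rose by 0.72, with 8.87, 8.72 and 8.90 against 8.27, 8.15 and 7.92. ND-B22 (NDUFB9) rose by 0.65, ND-ASHI (NDUFB8) by 0.61, ND-B14 by 0.59, ND-B18 by 0.58 and ND-MWFE (NDUFA1) by 0.57. In these genes the 3 L(3)MBT arrays lay above all control arrays.

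By role, 14 of 15 membrane arm genes and 5 of 6 tested matrix arm genes were higher, with median changes of 0.40 and 0.51. Of the core subunits, ND-20 rose by 0.40, which was the median of the 27 genes, ND-51 by 0.36 and ND-75 by 0.19. ND-ACP rose by 0.35. The 2 genes that fell were the 2 tested paralogs. ND-20L read 6.26, 6.24 and 6.15 against 6.74, 6.77 and 6.82, a fall by 0.56 (SE 0.0559, adjusted p 5.49e-10 in limma), while ND-20 rose. Its L(3)MBT mean of 6.215 lay at the upper end of the range of control probe sets without a fly target (3.16 to 6.22), so the size of this fall is not exact. ND-B14.5AL read 7.91, 8.06 and 7.99 against 8.28, 8.30 and 8.40, a fall by 0.34 (adjusted p 4.78e-05), while ND-B14.5A rose by 0.44. The untested paralogs ND-51L1, ND-51L2 and ND-24L had L(3)MBT means of 5.70, 5.93 and 5.79, inside that range, so no change is given for them.

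The change of a gene on these arrays differed with its level. Over all tested probe sets the median change was -0.06 where the control signal was under 7, 0.22 between 9 and 10, 0.26 between 10 and 11 and 0.17 at 11 and over. Of the complex I genes 9 lay between 9 and 10 and 8 between 10 and 11, where their own medians were 0.38 and 0.40. With quantile normalization the class medians lay between -0.07 and 0.02, and 10 complex I genes were called higher (30.8% of all probe sets) and 4 lower (37.4%), with a median change of 0.10.

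The 10 genes still higher after quantile normalization were ND-B17.2 (by 1.29), ND-18 (0.52), ND-SGDH (0.51), ND-B22 (0.39), ND-MWFE, ND-ASHI, ND-B14, ND-B18, ND-19 and ND-B17. The 4 lower were ND-20L, ND-B14.5AL, ND-13A and ND-B12. ND-15 lost its call there (0.10, adjusted p 0.339 in limma) and after cyclic loess (0.19, adjusted p 0.0651). The signs of ND-75 (-0.11) and ND-B14.7 (0.00) turned with quantile normalization, and that of ND-75 (-0.037) with cyclic loess. ND-13A, not called as deposited at 0.13, was at -0.14 with quantile normalization (adjusted p 0.0244 in limma), at -0.07 with cyclic loess (0.252) and at 0.24 with centring (0.00293). Cyclic loess gave 16 genes higher and 2 lower with a median of 0.17, and centring each array on its median gave 24 and 2 with a median of 0.50.

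**Figure D4:**
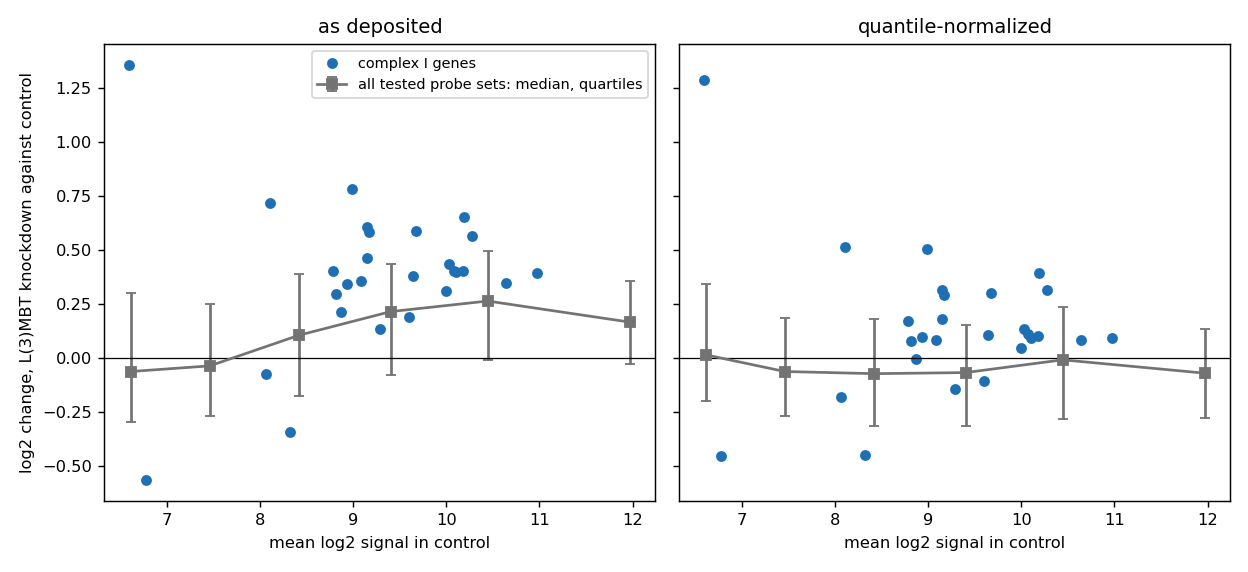
Log2 change in L(3)MBT knockdown against control of the 27 complex I genes (blue dots) by their mean log2 signal in control, beside the median and quartiles of all tested probe sets in 6 classes of level (grey squares and bars), for the values as deposited (left) and after quantile normalization (right). On the left the grey medians reach 0.26 between 10 and 11 and are at 0.17 above that, and most blue dots lie above them. On the right the grey medians are near 0 and ND-B17.2 stays at 1.29.

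Against E2F2 directly, L(3)MBT was higher in 23 of the 27 genes and lower in 2, with 34.1% and 31.4% of all probe sets higher and lower. Of the genes that fell in E2F2 and rose in L(3)MBT, ND-B18 differed by 0.80, ND-B14.5A by 0.74, ND-B14.5B by 0.71, ND-39 by 0.56 and ND-PDSW by 0.55. The direct differences carry the wider spread of the L(3)MBT arrays as well.

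The spread of an array and the level of the complex I genes were also compared within groups. In 8 of 10 groups the array with the widest interquartile range also had the highest median of the 27 genes. Control replicate 1 had a median deviation of 0.14 from the genes' 30-array means at an interquartile range of 2.22, control replicate 2 had 0.05 at nearly the same range, 2.21, and control replicate 3 had -0.03 at 2.17. Myb replicate 3 was at -0.15 with 2.16, while Myb replicates 1 and 2 were at 0.10 and 0.14 with 2.21 and 2.22. These differences within a group are of the size of the median changes reported for RBFs and E2F1, and their part in those changes was not tested.

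**Figure D5:**
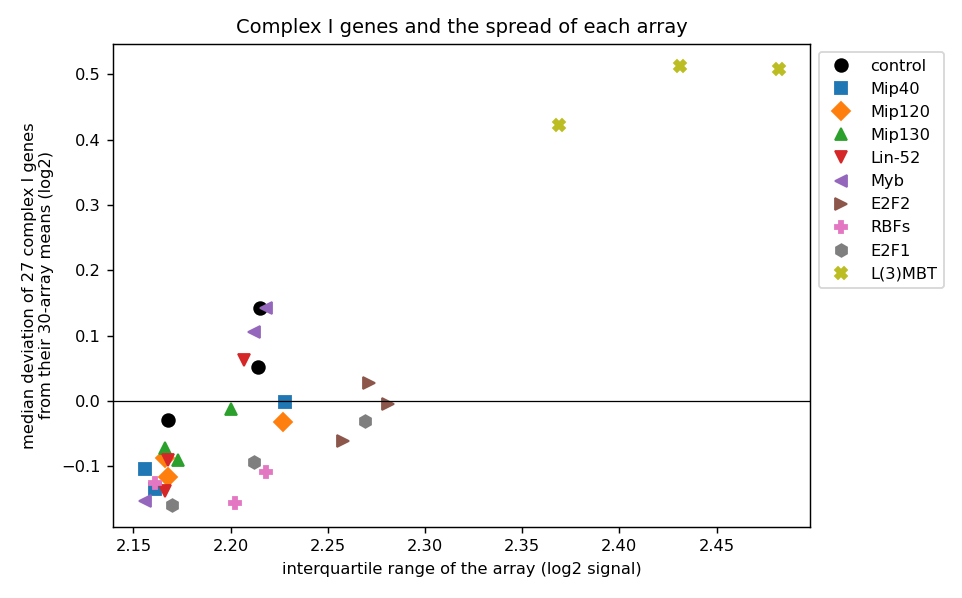
Median deviation of the 27 tested complex I genes from their means over all 30 arrays (vertical, log2) against the interquartile range of the array's signals (horizontal, log2), 1 symbol per array and 1 shape per group. The 3 L(3)MBT arrays lie at the upper right between 0.42 and 0.51, and among the others the arrays span -0.16 to 0.14.

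Genes for the rest of oxidative phosphorylation were counted in the same fits. Of 33 tested genes of complexes II, III, IV and ATP synthase, 16 were lower and 6 higher in E2F1, 9 lower and 1 higher in RBFs, 7 lower and 2 higher in Mip120, and 23 higher and 4 lower in L(3)MBT. Of all probe sets 31.3% were lower and 22.9% higher in E2F1, 11.9% and 11.5% in RBFs, 10.5% and 8.67% in Mip120, and 34.6% and 38.9% in L(3)MBT. The medians of the 33 genes were -0.15, -0.11, -0.09 and 0.32, beside -0.17, -0.19, -0.11 and 0.40 for complex I. Counts in E2F2 were 5 lower and 4 higher, in Mip130 4 lower, in Mip40 and Lin-52 2 lower (with 1 higher in Lin-52), and in Myb 1 lower. Over all probe sets 9.12% were lower and 16.4% higher in E2F2. The shares lower were 5.98% in Mip130, 8.92% in Mip40, 10.7% in Lin-52 (with 8.74% higher) and 3.43% in Myb.

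The largest changes on these lists belonged to a few genes. ATPsynepsilonL, a paralog of the epsilon subunit of ATP synthase, fell by 0.79 in Myb (SE 0.0743, adjusted p 2.85e-09 in limma), by 0.60 in E2F1 and by 0.59 in Mip120. COX4L, a paralog of a cytochrome c oxidase subunit, fell by 0.86 in E2F2 and by 0.51 in E2F1. In L(3)MBT ATPsynC, the ring subunit of ATP synthase, rose by 1.10, and ATPsynD, a stalk subunit, fell by 1.36. The complex III gene ox rose by 0.68 in E2F1, by 0.42 in RBFs and by 0.38 in Lin-52.

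Of 21 symbols listed as complex I assembly factors, 5 were on the array under the listed names and 3 were tested. In L(3)MBT, Nubpl, which inserts iron-sulfur clusters into complex I in human cells, rose by 0.81, and CG8728 rose by 0.22. In E2F1 these rose by 0.19 and 0.29, and sicily, a chaperone of complex I subunits, fell by 0.23. CG8728 was listed by its symbol alone, and whether it takes part in complex I assembly was not checked. A list of mitochondrial regulators, which names nuclear transcription regulators such as Ets97D beside genes that act on mitochondrial DNA, had 11 tested genes. Of these, 7 fell and 1 rose in E2F1 (31.3% and 22.9% of all probe sets). The falls included mtSSB (by 0.73), which coats single-stranded mitochondrial DNA, PolG1 (by 0.69), its DNA polymerase, and TFAM (by 0.52), its packaging protein. In L(3)MBT 6 of the 11 were higher (38.9% of all probe sets), with mTerf3 (by 1.09) and TFAM (by 0.47) the furthest.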

How the data were processed

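The values the authors deposited run from 1.949 to 13.597 and were taken as log2 signals because of that range; the log base and the normalization are not given in the sources used here. The submitters' processing notes name GCOS 1.2.0. Per the labels' protocols, cRNA was made from 10 micrograms of total RNA. For arrays, their number limits the precision.

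Values were used as deposited. After 44 control probe sets were left out, probe sets above their array's median on at least 3 arrays were tested, 7794 of 13966. Group means of all 30 arrays were fitted by lmFit and eBayes (trend = TRUE) of limma 3.58.1 under R 4.3.3, with 20 residual degrees of freedom, with 9 contrasts with control and 8 direct contrasts; p-values are two-sided and adjusted by Benjamini-Hochberg within each contrast. Figures used matplotlib 3.10.9. All 31 genes had their gene ID in the RefSeq table (Release 6 plus ISO1 MT), used for names and neighbours only; 20 of them overlap another gene there. Called genes of the set were named, and of each other list up to 3. The members and lists were chosen with earlier results of these data known. The steps were tested on simulated data. Deviations of arrays with the same replicate number correlated above the cut for all 3 numbers in Myb against control alone (0.21, 0.40 and 0.58). Even there not every array was most like that of its own number, so a pairing is not established. With a replicate block the count in Myb stayed at 1. Sequences and promoter motifs were not used here. Alternatives were other normalizations, filters, array weights, no trend, 6 arrays alone, a replicate block and leaving out each array. Leaving the L(3)MBT arrays out of the fit, and a block with 6 arrays alone, were added after seeing the data.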

Additional observations from a re-analysis of the deposited data

Results flagged for a closer look

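The results below are those in which 2 knockdowns moved a complex I gene in opposite directions against the same 3 control arrays and the direct contrast in limma passed the threshold. ND-15 was higher in E2F2 knockdown than in E2F1 knockdown by 0.55 (adjusted p 1.57e-05; changes of 0.29 and -0.26 against control). Its difference from E2F2 was -0.64 in RBFs (adjusted p 9.96e-06), -0.72 in Myb (6.53e-07) and -0.70 in Mip120 (2.06e-06). Against control, the E2F2 rise of ND-15 and its E2F1 fall were each lost in 4 of 17 alternatives. Its falls in RBFs and Myb were lost in 2 of 17 and 1 of 18, and that in Mip120 was kept in all 17.

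The other 5 set L(3)MBT against E2F2. The differences were 0.80 for ND-B18 (adjusted p 1.12e-09), 0.74 for ND-B14.5A (7.31e-09), 0.71 for ND-B14.5B (1.28e-07), 0.56 for ND-39 (6.78e-07) and 0.55 for ND-PDSW (2.94e-07), all from limma. In E2F2 these genes changed by -0.22, -0.30, -0.31, -0.25 and -0.25 and in L(3)MBT by 0.58, 0.44, 0.40, 0.31 and 0.30. The L(3)MBT values of 4 of these 5 lost their calls against control under quantile normalization, and ND-B18 kept its call at 0.29. The E2F2 fall of ND-B18, however, was lost in 7 of 17 alternatives. Those of ND-39, ND-B14.5B and ND-PDSW were lost in 4, 2 and 2 of 17, and that of ND-B14.5A was kept in all 17.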

How the results depend on the processing

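Of 1334 refits of the 80 called changes of complex I genes, 1194 kept the call, 137 kept the direction and missed the threshold, and 3 turned, all in L(3)MBT: ND-75 (-0.11 with quantile normalization, -0.037 with cyclic loess) and ND-B14.7 (-0.003 with quantile normalization). Of 457 refits of the counts and medians, 391 stayed within the limits set for a change. Array weights raised the number of called genes to 15 in Mip40, 15 in Mip120, 11 in Mip130, 18 in Lin-52, 20 in E2F2 against E2F1, 11 in Myb against E2F2, 16 in Myb against Mip130, 2 in Mip120 against Mip130, 11 in Mip120 against E2F2 and 2 in Lin-52 against Mip40. Quantile normalization gave 11 in E2F2, 14 in L(3)MBT, 4 in RBFs against E2F2 and 10 in Myb against E2F2, and cyclic loess gave 8 in Myb against E2F2. Centring on array medians gave 4 in E2F2 and 4 in Mip120 against E2F2. The 6 arrays of a contrast alone gave 1 in Lin-52, 1 in Myb against E2F2, 0 in Myb against Mip130 (unadjusted p under 0.05 in the full limma fit for 8) and 10 in Mip120 against E2F2. The median change in L(3)MBT was 0.10 with quantile normalization, 0.17 with cyclic loess and 0.50 with centring. Leaving out 1 array gave counts of 2 to 7 in Mip40, 3 to 8 in Mip120, 2 to 8 in Mip130, 2 to 8 in Lin-52, 0 to 2 in Myb, 2 to 5 in E2F2, 3 to 17 in RBFs, 10 to 15 in E2F1 and 24 to 26 in L(3)MBT, and of 6 to 15 in E2F2 against E2F1, 4 to 6 in RBFs against E2F2, 1 to 10 in Myb against E2F2, 0 to 15 in Myb against Mip130, 1 to 2 in Mip120 against E2F2 and 0 to 1 in Lin-52 against Mip40. The causes were not tested. The replicate block moved no count by over 1.5 times, with 12 in RBFs, 15 in E2F1 and 25 in L(3)MBT, and no contrast had all arrays most like those of their own number. Among all called probe sets the share of higher ones was 52.9% in L(3)MBT as deposited and 65.3% with centring, 64.2% in E2F2 with 50.5% for quantile normalization and 77.2% for centring, and 42.2% in E2F1 with 53.0% for cyclic loess. Standard errors of 0.0512 to 0.0965 at 3 arrays a group limit which changes can be called.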
